A study of Mus musculus with 2 samples.

Results

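The genes described here encode 9 proteins that cut, anchor or restrain matrix around a cell: Plau, Plaur, Serpinb2, Thbs1, Mmp12, Mmp13, Mmp14, Timp1 and Timp2. They were chosen by gene symbol, each symbol matched 1 gene identifier, and together they make up 9 of the 55536 mouse genes in the deposited gene table. Polyadenylated RNA came from macrophages derived from C57BL/6J bone marrow, which are primary cells and not a line. There was 1 group, with 2 libraries that the labels number as biological replicate 1 and biological replicate 2. Both libraries had the same treatment, 100 ng/ml for 120 minutes. The labels disagree on the agent, since the free-text description names Lipid A, the membrane anchor of bacterial lipopolysaccharide, whereas the treatment and source fields name lipoprotein A, a protein. Sex and age were not collected. Both libraries point to a single donor record, and the labels do not say whether they came from different animals. No unstimulated cells were analysed here, so a value tells how abundant a transcript was after treatment and nothing of induction.

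Urokinase, the product of Plau, is a secreted serine protease that binds its receptor, the product of Plaur, at the cell surface and turns plasminogen into plasmin. Plasmin dissolves fibrin and can activate the zymogens of matrix metalloproteinases. Those enzymes in turn cleave collagens, elastin and other matrix proteins, and they are held in check by the tissue inhibitors of metalloproteinases, or TIMPs. Macrophages use both systems when they migrate and remodel tissue, and Mmp12 is known as macrophage elastase.

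Replicate 1 held 33319563 estimated counts and replicate 2 held 50334059, so that a count of 0 allows up to 3 counts, or 0.0900 and 0.0596 CPM (counts scaled to library size). The chi-square per degree of freedom between them was 120.8 over 12178 genes, so they were not 1 library deposited again. All 8 macrophage markers looked at were at 1 TPM or more in both libraries, with Lyz2, the lysozyme gene, at 13518 and 19283 TPM and Cd68, a lysosomal membrane protein gene, at 3236 and 2939 TPM in replicates 1 and 2. TPM scales a transcript's abundance by its length and by the total of its library, so genes can be compared within a library. All 8 fibroblast and stromal markers, which would mark matrix-producing cells, were below 1 TPM in both libraries and summed to 1.43 TPM in replicate 1 and 1.05 TPM in replicate 2. None of those 8 was at 0 counts in both libraries, and the highest were the collagen genes Col1a1 at 0.380 and 0.280 TPM and Col3a1 at 0.390 and 0.190 TPM. In bulk RNA, fewer cells of a type and less RNA per cell cannot be told apart.

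Sequences are shown for an exon boundary of the model given the largest share of Mmp12, and for some start sites. These start sites have an AP-1 or TATA match, apart from the upstream Mmp12 start, shown for comparison. The counts used here do not test that boundary or those matches. Of the 7 annotated Mmp12 models, Mmp12-204 took the largest share of the gene's level in both libraries. Compared with the full-length coding model Mmp12-201 it has 58 extra bases at the start of exon 2, on the plus strand at chr9:7348527-7348584 in mm10. It also begins 32 bases later and has a shorter last exon, of 662 against 2235 bases. The lines below give the end of exon 1 and the start of exon 2 in each model, from GENCODE M21 transcripts, with the extra bases in capitals and, after them, the stop codon that they bring into frame also in capitals.
Mmp12-204: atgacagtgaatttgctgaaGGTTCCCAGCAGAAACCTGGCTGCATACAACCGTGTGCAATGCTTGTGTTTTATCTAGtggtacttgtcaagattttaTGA
Mmp12-201: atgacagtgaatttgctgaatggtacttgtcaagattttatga
With the extra bases the reading frame closes after 64 codons, whereas Mmp12-201 has 473 codons before its stop. The annotation classes Mmp12-204 as a target of nonsense-mediated decay, the pathway that removes mRNAs with an early stop codon.

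RefSeq promoter windows of build GRCm38.p6, each 250 bases before and 50 after a start site, were at hand for 7 of the 9 genes, as 9 start sites. Plau and Thbs1 had no window and were not searched. The AP-1 motif was searched as TGACTCA or TGAGTCA, which are each other's reverse complement, and the TATA box as TATAAA on both strands. AP-1 letters were found for 3 of the 7 searched genes, in 1 window each. They lay at -44 of the downstream Mmp12 start, -35 of Mmp13 and -69 of Plaur, counted from start site to first motif base. In the table of 32851 promoters of the same length, 5.20% held those letters. TATAAA was found for 3 genes, and 13.6% of all promoters held it. Both shares count windows and not genes, and Mmp12 and Serpinb2 each had more than 1 window, so they are not like for like. TATAAA lay before the start at -16 of Mmp13 and at -29 of the first Serpinb2 start. The Serpinb2 windows overlap, and the same site lay at -116 of the second start. For Mmp12 it lay at position 5 from the downstream start, inside the models that begin there. The same letters lay before the start of the 3 models that begin 32 bases past it, Mmp12-204 among them. The NF-kB consensus of 10 letters, searched on both strands, was in none of the 9 windows and in 4.51% of all promoters. These matches are descriptions of letters and not of factor binding. The 120 bases before 5 of these starts, all on the plus strand, read as follows with AP-1 and TATAAA letters in capitals.
Mmp12 upstream start, chr9:7344277-7344396: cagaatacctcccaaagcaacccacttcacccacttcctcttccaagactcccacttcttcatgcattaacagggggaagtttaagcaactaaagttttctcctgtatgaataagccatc
Mmp12 downstream start, chr9:7347254-7347373: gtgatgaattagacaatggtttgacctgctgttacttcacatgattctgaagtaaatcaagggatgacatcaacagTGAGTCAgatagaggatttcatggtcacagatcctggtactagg
Mmp13, chr9:7272394-7272513: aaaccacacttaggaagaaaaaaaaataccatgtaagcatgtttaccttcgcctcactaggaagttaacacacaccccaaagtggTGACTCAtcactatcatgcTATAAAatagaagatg
Plaur, chr7:24462363-24462482: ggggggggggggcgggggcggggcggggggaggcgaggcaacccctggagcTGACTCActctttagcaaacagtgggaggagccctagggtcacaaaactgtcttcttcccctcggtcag
Serpinb2 first start, chr1:107511303-107511422: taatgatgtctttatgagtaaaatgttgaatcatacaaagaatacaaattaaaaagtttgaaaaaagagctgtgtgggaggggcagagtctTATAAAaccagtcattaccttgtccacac

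All 9 genes were detected above 1 TPM in both libraries, and 5 of them, Timp2, Mmp13, Plaur, Thbs1 and Mmp12, stood at 100 TPM or more in both. Together the 9 summed to 1815 TPM in replicate 1 and 1169 TPM in replicate 2. TPM also ran somewhat higher in replicate 1 in general, with a median log2 ratio of 0.10 over the 10443 genes whose mean count reached 50. The sums include the short Timp2 model Timp2-202, at 198 and 76.5 TPM. By mean TPM the order was Timp2, Mmp13, Plaur, Thbs1, Mmp12, Mmp14, Plau, Serpinb2 and Timp1. On its long model Timp2-201 alone, Timp2 would stand at a mean of 251.5 TPM, below Mmp13 and Plaur. At gene level, Timp2 had 473 and 304 TPM in replicates 1 and 2, above Mmp13 at 293 and 260.0 TPM with no overlap, and at the bottom Timp1 at 4.90 and 6.05 TPM lay below Serpinb2 at 29.3 and 25.0 TPM with no overlap. Each of the other 6 neighbouring pairs in that order had ranges that overlapped, and Mmp13 and Plaur changed places between the libraries. The other 5 pairs of the 6 kept the same order within each library.

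**Figure D1:**
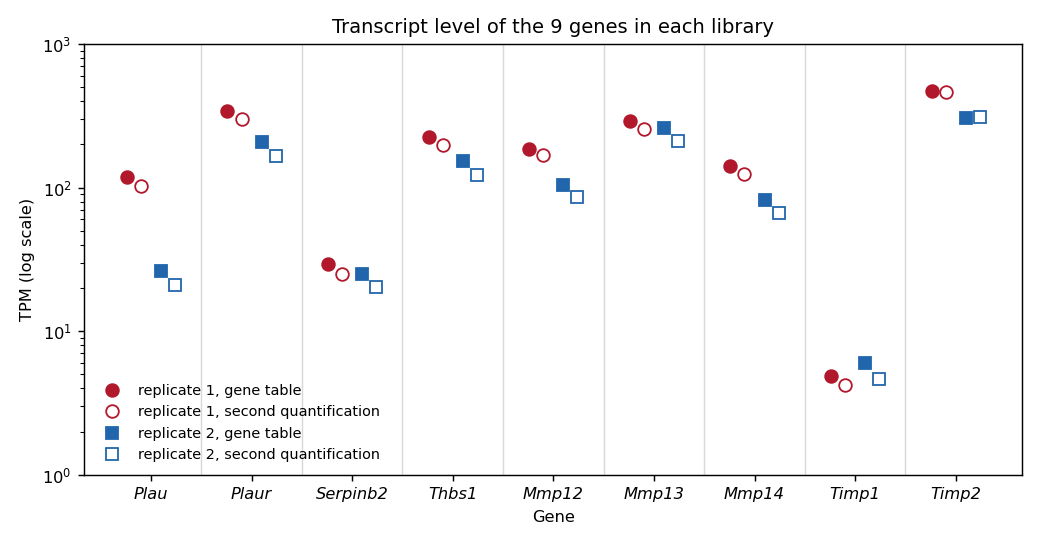
TPM (log scale) of each gene in replicate 1 (red circles) and replicate 2 (blue squares), with filled symbols for the deposited gene table and open symbols for the second quantification summed by gene. Plau is the gene whose libraries lie furthest apart, at 119 and 26.2 TPM in the gene table, and Timp1 is the lowest, at 4.90 and 6.05 TPM.

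The urokinase gene Plau, on chromosome 14 at 20836660 to 20843385 of the plus strand, had 5520 counts in replicate 1 (exact 95% Poisson interval 5375 to 5668) and 1794 counts in replicate 2 (1712 to 1879). That corresponds to 119 TPM in replicate 1 and 26.2 TPM in replicate 2, a mean of 72.5 ± 65.5 TPM (SD, n = 2). The gene was higher in replicate 1, and in replicate 2 it lay near the level of Serpinb2. After scaling by the trimmed mean of M-values, TMM, the CPM values were 157 and 37.8, a log2 ratio of replicate 1 over replicate 2 of 2.05 with a 95% interval of 1.97 to 2.13. All intervals here reflect counting error alone and leave out any spread between libraries. Reads that carry no molecular identifier need not be independent molecules, so the intervals may be too narrow even for counting error. With 1 library on each side the ratio has no test. Among the 10443 genes whose mean count reached 50, Plau was the 48th highest in replicate 1 over replicate 2, and 0.584% of genes lay further apart in either direction.

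Plaur, the receptor that holds urokinase at the membrane, is on chromosome 7 at 24462484 to 24475968 of the plus strand. It had 9118 counts (interval 8932 to 9307) in replicate 1 and 7857 counts (7684 to 8033) in replicate 2, or 344 and 208 TPM, with a mean of 275.7 ± 95.9 TPM (SD, n = 2). Receptor transcript exceeded ligand transcript in both libraries, by 2.89-fold in replicate 1 and 7.93-fold in replicate 2 on the TPM scale. The log2 ratio of replicate 1 over replicate 2 was 0.64 (interval 0.60 to 0.69).

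Serpinb2, which encodes plasminogen activator inhibitor type 2, is on chromosome 1 at 107511423 to 107535478 of the plus strand. It had 1118 counts (interval 1053 to 1186) in replicate 1 and 1404 counts (1332 to 1479) in replicate 2, or 29.3 and 25.0 TPM, with a mean of 27.1 ± 3.02 TPM (SD, n = 2). The libraries lay close together, with a log2 ratio of 0.10 whose counting interval, -0.01 to 0.21, includes 0. Relative to this inhibitor, Plau transcript stood 4.06-fold in replicate 1 and 1.05-fold in replicate 2. The Serpinb10 gene overlaps Serpinb2 on the same strand and had 29 counts in replicate 1 and 4 counts in replicate 2, far fewer than Serpinb2.

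Thbs1, on chromosome 2 at 118111876 to 118127133 of the plus strand, encodes thrombospondin-1, a matricellular glycoprotein that binds cell-surface receptors and can activate latent TGF-beta. Its counts were the highest of the 9 genes, 28293 (interval 27964 to 28625) in replicate 1 and 28329 (28000 to 28661) in replicate 2. On the length-scaled TPM its levels were 225 and 153, a mean of 189 ± 51.05 TPM (SD, n = 2). The near-equal counts come from libraries of different depth, and the scaled log2 ratio was 0.43 (interval 0.40 to 0.45), higher in replicate 1.

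The collagenase gene Mmp13 and the macrophage elastase gene Mmp12 lie 61049 bases apart on chromosome 9 in the same orientation. Mmp13, at 7272514 to 7283331, had 15793 counts (interval 15548 to 16041) in replicate 1 and 20644 counts (20363 to 20928) in replicate 2, or 293 and 260.0 TPM. Its mean was 276.5 ± 23.3 TPM (SD, n = 2), and the log2 ratio of 0.04 (interval 0.01 to 0.07) was the smallest of the 9 genes in size. Mmp12, at 7344381 to 7369499, had 6315 counts (6160 to 6473) in replicate 1 and 5073 counts (4934 to 5215) in replicate 2, or 187 and 105 TPM, with a mean of 146 ± 58.3 TPM (SD, n = 2). It was the member furthest apart after Plau, with a log2 ratio of 0.74 (interval 0.69 to 0.80), so that Mmp13 exceeded Mmp12 by 1.57-fold in replicate 1 and 2.49-fold in replicate 2. The cluster that holds both spans 10 metalloproteinase genes up to position 7699585, of which 4 were at 1 TPM or more in both libraries. The other 2 of these 4 were Mmp27 at 49.2 and 61.1 TPM and Mmp8 at 11.8 and 7.79 TPM, named because of their place in the cluster. At 0 counts in both libraries were 3 genes of the cluster, Mmp1a, Mmp20 and Mmp7, while Mmp1b, Mmp3 and Mmp10 had 46 counts or fewer in each library.

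Mmp14 encodes a metalloproteinase anchored in the plasma membrane, which cleaves collagen and activates pro-Mmp2 in a complex that needs Timp2. It is on chromosome 14 at 54431612 to 54445364 of the plus strand and had 6616 counts (interval 6458 to 6777) in replicate 1 and 6065 counts (5913 to 6220) in replicate 2. These are 141 and 81.7 TPM, a mean of 111 ± 41.65 TPM (SD, n = 2), with a log2 ratio of 0.55 (interval 0.50 to 0.60). The gelatinase gene Mmp2, the substrate of that complex and named for that reason, was low at 1.03 and 0.720 TPM, on 25 and 38 counts.

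Of the inhibitors, Timp2 had the highest gene-level mean TPM of the 9 genes, though not on Timp2-201 alone, and Timp1 the lowest. Timp2, on chromosome 11 at 118301069 to 118355740 of the minus strand, had 23208 counts (interval 22910 to 23509) in replicate 1 and 27050 counts (26729 to 27374) in replicate 2, or a mean of 389 ± 119 TPM (SD, n = 2). Its transcript exceeded that of Mmp14 by 3.36-fold in replicate 1 and 3.73-fold in replicate 2 in the gene table, by 3.70-fold and 4.62-fold in the second quantification, and by 1.96-fold and 2.79-fold on Timp2-201, the long Timp2 model, alone. Timp1, on chromosome X at 20870166 to 20874735 of the plus strand, had 64 counts (interval 49.3 to 81.7) in replicate 1 and 115 counts (94.9 to 138) in replicate 2, with a mean of 5.475 ± 0.813 TPM (SD, n = 2). It was the 1 member lower in replicate 1, with a log2 ratio of -0.42 whose interval, -0.88 to 0.04, includes 0. Timp1 lies inside Syn1 on the opposite strand, which had 765 and 761 counts, and since the strand setting of the counting is not given in the sources used here, reads of the 2 genes might not be told apart. Timp2 transcript was 96.5-fold that of Timp1 in replicate 1 and 50.3-fold in replicate 2.

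Between the libraries, 1 of the 9 genes, Plau, was 2-fold or more apart, and it was higher in replicate 1. Of the same 10443 genes, 3.99% were 2-fold or more apart and 2.14% were 2-fold or more higher in replicate 1. These were 224 genes higher and 193 lower in replicate 1 with TMM, and 372 higher and 117 lower with library totals. All 9 genes passed that count minimum, a mean of 50. Whatever the size of the difference, 8 of the 9 were higher in replicate 1, where 46.5% of all tested genes were, and the median log2 ratio of the 9 was 0.43 beside -0.03 over all tested genes. Without Plau the median was 0.32 and the range ran from -0.42 to 0.74. The share of all genes with a lower ratio was 95.5% for Mmp12, 94.1% for Plaur, 92.1% for Mmp14 and 87.9% for Thbs1. It was 74.6% for Timp2, 64.6% for Serpinb2, 58.3% for Mmp13 and 13.9% for Timp1. Plau was part of the choice of these genes as a gene that differed strongly, so its ratio is a description.

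**Figure D2:**
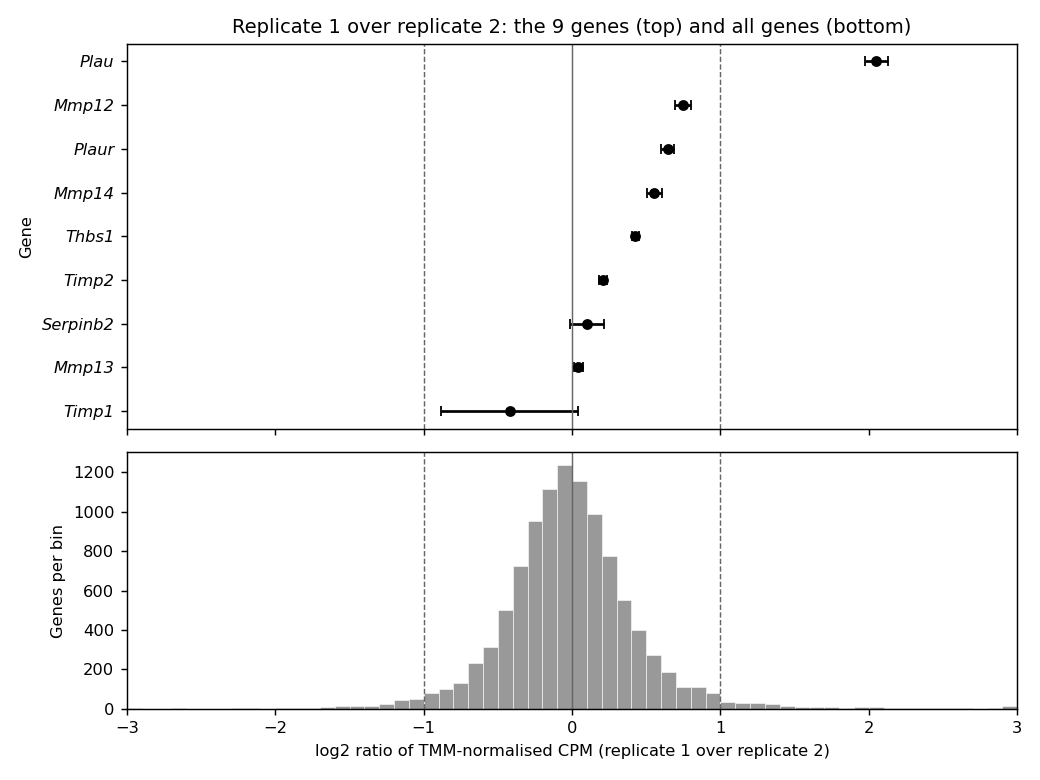
Top, log2 ratio of TMM-normalised CPM (replicate 1 over replicate 2) of each gene, with 95% counting intervals as bars. Bottom, the number of genes per bin of that ratio among the 10443 genes whose mean count reached 50, with the 15 genes beyond 3 in size placed in the outermost bins and dashed lines at 2-fold. Plau at 2.05 lies past the dashed line, and the other 8 genes lie between -0.42 and 0.74.

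Markers of granulocytes and platelets were, like Plau, higher in replicate 1. Of 10 granulocyte markers, 6 reached the count minimum and 5 of these were 2-fold or more higher in replicate 1, the exception being Mmp8. The list summed to 560 TPM in replicate 1 and 84.2 TPM in replicate 2, led by the calprotectin genes S100a9 at 266 and 41.2 TPM and S100a8 at 167 and 20.5 TPM, and none of the 10 was at 0 in both libraries. Platelet and megakaryocyte markers summed to 933 and 238 TPM over 6 genes. The 3 of them past the count minimum were all 2-fold or more higher in replicate 1, led by the platelet factor gene Pf4 at 916 and 236 TPM. Gp9 was at 0 in replicate 2 and none of the 6 was at 0 in both. Of 8 cell cycle genes, all past the count minimum, 5 were 2-fold or more higher in replicate 1, while their summed level was 96.2 TPM in replicate 1 and 64.9 TPM in replicate 2. The highest, the proliferation marker Mki67, was at 33.6 and 41.6 TPM, against that direction, and Cdk1, the mitotic kinase gene, was at 29.6 and 15.6 TPM. Of 8 osteoclast markers, 3 reached the count minimum and none of these was called 2-fold apart, though Acp5 with a log2 ratio of 0.99 was just short of it. The list summed to 398.5 TPM in replicate 1 and 219 TPM in replicate 2. Most of that came from the proton pump gene Atp6v0d2 at 246 and 146 TPM and Acp5 at 146 and 67.4 TPM. Calcr, the calcitonin receptor gene, was at 0 counts in both. Among endothelial markers, 3 reached the count minimum. Of these Vwf at 11.8 and 25.9 TPM and Kdr at 3.85 and 9.76 TPM were 2-fold or more lower in replicate 1, while Cdh5 was higher in it with a log2 ratio of 0.21, and the list summed to 17.3 and 37.5 TPM. The part of these cells in the level of Plau or of any other member was not tested.

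**Figure D3:**
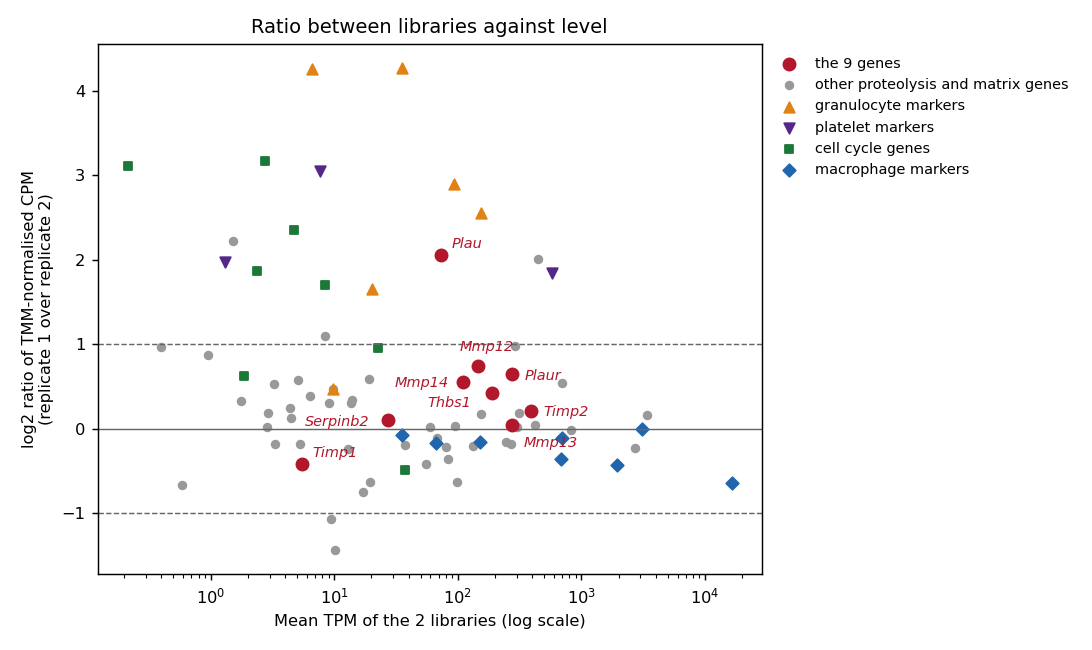
Log2 ratio of TMM-normalised CPM (replicate 1 over replicate 2) against the mean TPM of the 2 libraries (log scale) for genes whose mean count reached 50, with dashed lines at 2-fold. Plau lies at 2.05 and the platelet factor gene Pf4 at 1.84, whereas the macrophage markers lie between -0.64 and 0.00.

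The surroundings of the urokinase system were described with 18 further genes of plasminogen activation. Of these 11 reached 1 TPM in both libraries, and 13 reached the count minimum, of which 2 were 2-fold or more higher in replicate 1, 1 was lower and 10 were between. The higher genes were Serpine2, a protease inhibitor gene, at 2.55 and 0.500 TPM, and Plat, the other plasminogen activator gene, at 11.7 and 5.01 TPM, with log2 ratios of 2.22 and 1.10. The lower was Procr, the receptor gene of protein C, at 7.16 and 11.8 TPM with a log2 ratio of -1.07. The median log2 ratio of the 13 was 0.02 beside -0.03 over all tested genes. Anxa2 and S100a10, whose products form a plasminogen-binding complex at the cell surface, were the most abundant at 851 and 538 TPM and 448 and 398 TPM. Plg, the plasminogen gene itself, and its inhibitor gene Serpinf2 were at 0 counts in both libraries, as were Vtn and Klkb1. Plat and Procr were named after their values were seen.

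Among 24 other metalloproteinase and inhibitor genes, 5 reached 1 TPM in both libraries and 5 had a mean count of 50 or more, none of them 2-fold apart. Furin, the proprotein convertase gene whose product activates Mmp14, was the most abundant at 80.8 and 116 TPM with a log2 ratio of -0.63, and Mmp27 followed at 49.2 and 61.1 TPM. Of the 24, 6 were at 0 counts in both libraries, among them Mmp7 and Timp4. Beside Mmp13 and Mmp12, the levels of these genes were low, with a median of the list's mean TPM of 0.0700. Of 13 ADAM and ADAMTS genes, 7 reached the count minimum and none was 2-fold apart. Adam8, a membrane protease gene of leukocytes, was highest at 393 and 185 TPM with a log2 ratio of 0.97, just short of 2-fold, and Adam17, the TNF convertase gene, stood at 76.1 and 89.95 TPM.

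Matrix genes themselves were mostly low. Of 18 matrix and matricellular genes besides Thbs1, 5 were at 1 TPM or more in both libraries, and of the 7 with a mean count of 50 or more 1 was 2-fold apart. Spp1, the osteopontin gene, was by far the highest at 3703 and 3039 TPM, and Ecm1, a matrix glycoprotein gene, followed at 91.0 and 100.0 TPM. The gene furthest apart was Tgfbi, which encodes a matrix adhesion protein, at 5.82 and 14.4 TPM with a log2 ratio of -1.44. The other thrombospondin genes of the list, Thbs2, Thbs3 and Thbs4, had 5 counts or fewer in each library and are named here as the family of Thbs1.

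All 8 partner genes of thrombospondin-1 reached 1 TPM in each library, and 1 of the 8 was 2-fold apart. Cd36, a scavenger receptor gene whose product binds thrombospondin-1, stood at 720 and 164 TPM with a log2 ratio of 2.00, a difference of the size of that of Plau. Cd47, another receptor gene and named for its role, was at 250 and 288 TPM. On the TPM scale Thbs1 was 0.313 of Cd36 in replicate 1 and 0.935 of it in replicate 2, and 0.900 and 0.532 of Cd47. Sdc4, a heparan sulfate proteoglycan gene, was the most abundant of the 8 at 2636 and 2816 TPM. Of 10 clade B and related serpins, 6 reached the count minimum and none was 2-fold apart, with the intracellular inhibitor gene Serpinb6a at 857 and 793 TPM and Serpinb8 at 23.9 and 14.3 TPM. In the clade B cluster of chromosome 1, Serpinb2 and Serpinb8 were the 2 of 5 genes that reached 1 TPM in both libraries.

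Some of the 9 genes rested on 1 annotated transcript and others did not. Plau-201, Thbs1-201 and Mmp13-201 carried 100% of their gene's TPM in the first transcript table in both libraries. For Plaur, Plaur-201 with a coding length of 981 bases carried 91.4% in replicate 1 and 84.0% in replicate 2, and the retained-intron model Plaur-202 carried 6.21% and 13.5%. Mmp14-201 carried 87.1% and 94.9% of Mmp14, and the retained-intron model Mmp14-207 carried 6.39% in replicate 1 with 0 in replicate 2. In replicate 1 the leading Timp1 model was Timp1-202 at 58.8%, against 46.9% in replicate 2, on gene counts of 64 and 115. Both Timp1 models have the same coding length of 615 bases.

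Serpinb2 has coding models from both of its starts, and their coding lengths are equal at 1245 bases. Serpinb2-201, from the first start, carried 73.5% in replicate 1 and 82.2% in replicate 2 in the first transcript table. In the second transcript table the same model carried 55.9% and 57.6%, so the split between the starts was set more by the quantification than by the library.

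Mmp12-204, the model with the extra bases shown above, carried 65.7% of Mmp12 TPM in replicate 1 and 58.8% in replicate 2 in the first transcript table, and 50.8% and 45.9% in the second. Mmp12-202, a coding model with 6 exons that ends in a far exon of its own, carried 30.7% and 32.7% in the first table and 27.0% and 29.5% in the second. The full-length coding model Mmp12-201 carried 0.260% and 0.690% in the first table and 0.141% and 0.309% in the second. Mmp12-203, which begins at the upstream start and codes from a later start codon, differed most between tables, at 3.0% and 7.50% in the first and 21.5% and 23.9% in the second. The 2 models that begin at the downstream RefSeq start, Mmp12-201 and Mmp12-202, carried 30.9% and 33.4% in the first table and 27.2% and 29.8% in the second. The 3 models that begin 32 bases past it, Mmp12-204 among them, carried 66.1% and 59.1% in the first table and 51.4% and 46.4% in the second. Mmp12-201, Mmp12-203 and Mmp12-204 share the start of their last exon, position 7358227, and differ in its length of 2235, 238 and 662 bases, so that among these 3 the regular exon 2 start comes only with the longest last exon. Which exon 2 boundary the reads crossed was not tested, since read-level data were not used here.

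Timp2 had 2 coding models that weigh differently in counts and in TPM. Timp2-202, of 718 bases and annotated as incomplete at its 3′ end, held 8.36% of the gene's counts in replicate 1 and 4.08% in replicate 2. Because TPM divides by length, the same reads made up 41.8% and 25.1% of the gene's TPM. Timp2-201, of 3709 bases, stood by itself at 275 TPM in replicate 1 and 228 TPM in replicate 2, a mean of 251.5 ± 33.4 TPM (SD, n = 2) against 389 ± 119 TPM for the gene. This alternative was chosen after the values were seen. The log2 ratio between the libraries was 0.64 for the TPM of the gene, 0.27 for the TPM of Timp2-201 and 0.21 for the scaled gene counts.

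**Figure D4:**
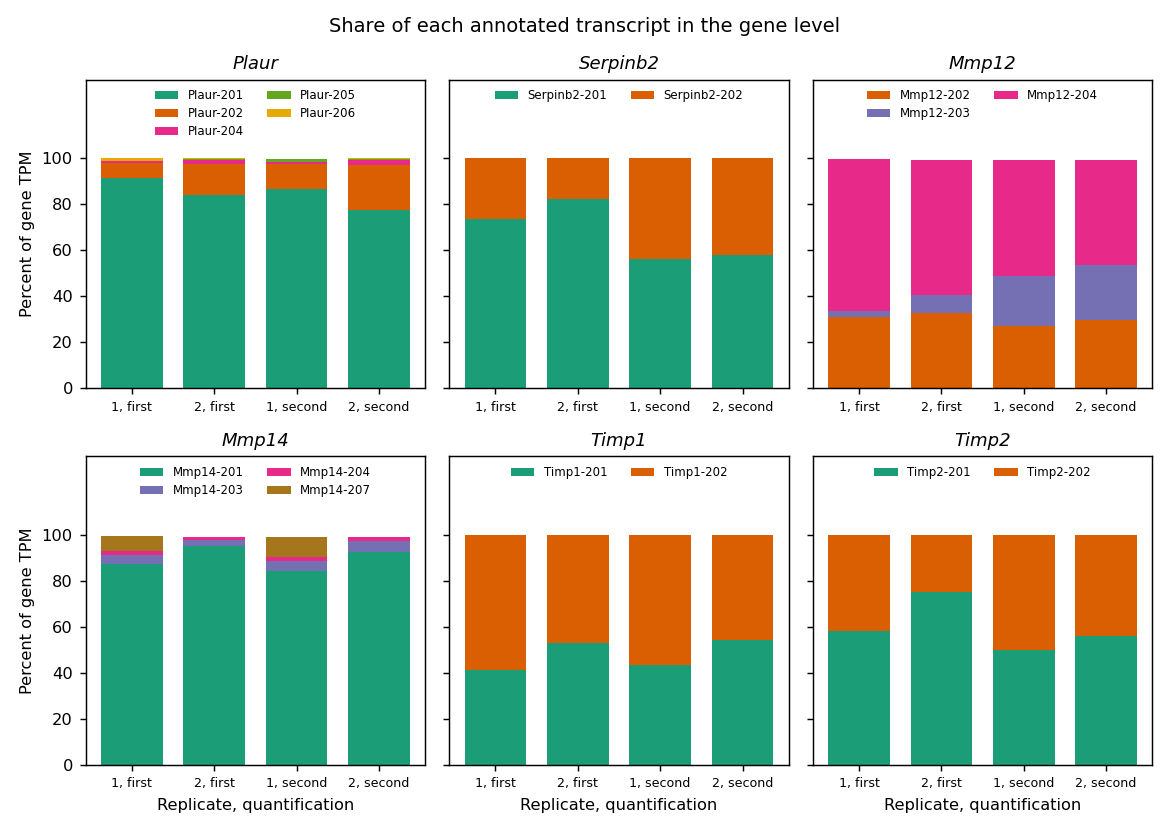
Percent of each gene's TPM in its annotated transcripts, in replicates 1 and 2, from the first transcript table (left 2 bars of each panel) and the second (right 2 bars), leaving out transcripts under 1% in all 4. Mmp12-204 is the largest part of Mmp12 in all 4 bars, at 65.7% and 58.8% in the first table and 50.8% and 45.9% in the second, and Timp2-202 ranges from 25.1% to 50.3%.

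The second quantification gave lower mean TPM for all 9 genes, with a median difference of -15.3% and the smallest for Timp2 at -0.785%. The drop was not particular to these genes, since the macrophage markers were lower in it too. In replicates 1 and 2, Cd68 was at 2671 and 2211 TPM in it and Lyz2 at 11059 and 14374 TPM. The share of all genes that were lower was not computed. The second quantification kept the direction between the libraries for all 9, with Plau at 102 and 20.8 TPM and Timp1 at 4.19 and 4.64 TPM.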

How the data were processed

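Per the file headers, the authors' gene table and first transcript table hold expected counts, TPM, posterior mean TPM and each transcript's percent of its gene (RSEM column names). In the authors' second transcript table, per the file headers, are estimated counts and TPM (kallisto column names). Per the labels the assembly is mm10. The annotation was taken as GENCODE M21, from the reference given with the files, and program versions and the strand setting are not given in the sources used here. The second table was summed by gene. Entries whose identifiers are not mouse genes, 0.141% and 0.134% of the deposited counts in replicates 1 and 2, were left out. Symbols were missing for 86 mouse genes.

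Expected counts were rounded and scaled with TMM factors (edgeR 4.0.16, R 4.3.3), which were tried on simulated libraries. A log2 ratio of 1 or more in size was called 2-fold apart, among genes whose mean count reached 50, the count minimum. Poisson and Clopper-Pearson intervals are exact at 95% (scipy 1.17.1). Groups were taken from the labels, and no conditions were compared because there is 1 group. Alternatives were DESeq2 1.42.0 size factors, library totals, other count minimums, log2 of TPM plus a pseudocount, the second quantification, TPM without mitochondrial genes and each replicate alone. From 6 gene lists the 2 genes highest in mean TPM and the one furthest apart were named, and from 7 marker lists the 2 highest and any at 0 counts. One gene of the lists is not reported here by name. Genes named outside this rule were chosen after their values were seen. The 9 genes and all lists were chosen with earlier results of these data known.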

Additional observations from a re-analysis of the deposited data

How the results depend on the processing

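In each of the 9 alternative settings run, Plau was the only 1 of the 9 genes 2-fold apart and Timp1 the only one lower in replicate 1, except that Timp1 dropped out at a mean count of 200 or more. The log2 ratio of Plau was 2.22 with library totals, 2.14 on log2(TPM + 1) and 2.18 on log2(TPM + 0.1), against 2.05 with TMM. Library totals moved the median ratio of all genes to 0.14, from -0.03 with TMM, and moved the share of called genes higher in replicate 1 to 76.1%, from 53.7%. The 417 genes 2-fold apart became 230 on log2(TPM + 1), 1040 at a mean count of 10 or more, 189 at 200 or more and 2521 with 1 count or more in both libraries. The share higher in replicate 1 was 71.3% on log2(TPM + 1), 70.2% on log2(TPM + 0.1) and 38.6% at 200 or more. The lower count minimums test more genes of few counts, and the cause of the other shifts was not tested. Mean TPM moved by more than 1 SD for Serpinb2, Mmp13 and Timp1 in the second quantification, and for Timp2 on Timp2-201 alone. In the second quantification the shifts of Serpinb2, Mmp13 and Timp1 were -16.2%, -15.7% and -19.4%. Those of Plaur, Thbs1 and Plau were close to them in percent, at -15.6%, -15.3% and -15.2%, but stayed within 1 SD. The SD is of 2 libraries, so this mark depends on how close the libraries lay. Posterior mean TPM and TPM without mitochondrial genes stayed within 1 SD for all 9. Leaving out either replicate gives the values of the other, as printed above. No paired analysis was possible because the labels give 1 group. TMM without the 10 genes with most counts was chosen after seeing the data and gave 417 genes.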
